A study of Mus musculus with 12 samples.

Results

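The genes described here encode 7 mitochondrial carriers that are named uncoupling proteins, are close relatives of them, or carry part of the same proton leak. They are Ucp2 and Ucp3, Slc25a27 (also called UCP4), Slc25a14 (UCP5 or BMCP1), Slc25a30 (KMCP1), and the adenine nucleotide translocase genes Slc25a4 (ANT1) and Slc25a5 (ANT2). They were taken by symbol from the 24421 genes of each count file, where all 7 were found, and all 7 passed the filter on low counts that left 14564 genes for testing. Ucp2 was chosen by its measured difference between the groups, being among the 8 genes called lower in fear case over all genes. That difference is therefore a description here and supports nothing. The other 6 were added as its relatives.

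All 7 proteins belong to the SLC25 family, which moves small molecules across the inner mitochondrial membrane. The respiratory chain pumps protons out of the matrix, ATP synthase uses their return, and an uncoupling protein lets protons or charged metabolites cross without ATP being made. UCP1 does this in brown fat to give heat. UCP2 is found in many tissues and in immune cells and is known for limiting superoxide formation and for exporting short dicarboxylates from the matrix. The adenine nucleotide translocases exchange ADP for ATP and also conduct a proton leak that fatty acids switch on. Slc25a27 and Slc25a14 are known as brain-enriched members.

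The data are polyribosome-enriched RNA from the hippocampus of C57/Bl6 mice aged 6 weeks, in 12 libraries that the labels divide into 6 control and 6 fear case. Every library carries the same protocol text: 8 min in an unfamiliar context, 7 min in the home cage, and collection at 15 min. No allele, transgene or drug is named for either group, and the labels do not say how the handling of controls differed or whether a shock was given. Nothing in the labels ties a library to a separate mouse, so p-values measure the spread between these libraries, which may be technical. The pellet of a sucrose cushion was sequenced and no matching input was analysed here, so a level joins transcript amount and ribosome association.

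Each library held 18.6 M to 44.2 M counts on genes (median 21.6 M), and no 2 libraries were identical (0 identical pairs). Fear case 6 stood apart: it was the deepest, Rn45s took 12.5% of its gene counts, and its choroid plexus markers lay within the control range while those of the other 5 fear case libraries lay below it. Results that rest on it are given with and without it. The activity genes Fos, Npas4 and Arc were higher in all 6 fear case libraries than in any control. Neuronal markers summed to 10610 to 11476 CPM (counts per M of the TMM-scaled library size) in controls and 10957 to 11582 CPM in fear case. The haemoglobin genes Hba-a1, Hba-a2, Hbb-bs and Hbb-bt had 0 counts in every library. The whole list of blood markers summed to 2.23 to 7.69 CPM in controls and 2.48 to 7.96 CPM in fear case. The zeros alone therefore do not show that blood was absent, and their cause was not tested.

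Ucp2 and Ucp3 are neighbours on the plus strand of mouse chromosome 7, and their levels differed widely in every library. In GENCODE vM21 (GRCm38, the assembly of mm10), Ucp3 spans 100472990 to 100486432 and Ucp2 spans 100493337 to 100502020, with a gap of 6904 bases between them. The 250 bases before the RefSeq start of each are shown because these neighbours stood so far apart in level (RefSeq, GRCm38.p6, 5′ to 3′ on the strand of the gene). Capitals mark GGGCGG, the GC box, on either strand. The windows are chr7:100493108-100493357 for Ucp2 and chr7:100472741-100472990 for Ucp3, both on the plus strand.
Ucp2: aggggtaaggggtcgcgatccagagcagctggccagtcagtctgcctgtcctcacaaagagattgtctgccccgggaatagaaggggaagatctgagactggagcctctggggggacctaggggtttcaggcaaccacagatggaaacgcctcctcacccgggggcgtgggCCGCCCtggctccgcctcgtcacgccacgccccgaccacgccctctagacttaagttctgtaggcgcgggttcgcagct
Ucp3: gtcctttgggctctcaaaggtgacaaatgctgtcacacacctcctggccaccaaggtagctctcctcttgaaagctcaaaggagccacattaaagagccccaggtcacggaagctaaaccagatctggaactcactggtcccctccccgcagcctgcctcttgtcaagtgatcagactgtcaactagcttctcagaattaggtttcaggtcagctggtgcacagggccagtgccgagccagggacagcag

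The Ucp2 window held 16 CpG dinucleotides and 63.6% G or C, against 3 CpG and 54.8% for Ucp3. Over 32851 windows of this length in the table, the medians were 6 CpG and 52.4%. The GC box was present 1 time in the Ucp2 window and absent from that of Ucp3, and 32.7% of all windows held it on either strand. The E-box CACGTG was in neither window, and 6.02% of all windows held it. Among the other members, the windows of Slc25a30 (16 CpG) and Slc25a5 (14 CpG) each held 1 GC box and that of Slc25a4 (18 CpG) held none. Slc25a14 had 3 entries with overlapping windows, so the same GC box fell in 2 of them and the same E-box in 2. Slc25a27 was not matched.

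Ucp2 was lower in fear case. Its level in control 1 to 6 was 32.6, 31.4, 30.8, 26.2, 44.3 and 26.3 CPM. In fear case 1 to 6 it was 18.9, 12.35, 13.7, 10.3, 16.9 and 28.3 CPM. Fear case 1 to 5 all lay below every control, while fear case 6 lay inside the control range. Over all tested genes, 1.84% had at least 5 fear case libraries below every control. The group means were 31.9 ± 6.62 CPM in controls, against 16.7 ± 6.46 CPM in fear case (SD, n = 6 each), which is 0.528-fold. The log2 fold change was -0.92 (SE 0.18, 95% interval -1.30 to -0.54), and -1.15 without fear case 6 (95% interval -1.46 to -0.84). Behind these values stood 522 to 985 Ucp2 counts per control library and 232 to 1135 per fear case library.

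Of the 7 members, 1 was called in edgeR's fit over all genes with Benjamini-Hochberg adjustment, namely Ucp2 (adjusted p = 0.0483), and it was lower. Of all 14564 genes 0.103% were called, 0.0549% lower and 0.0481% higher. Since that call chose Ucp2, nothing is read from the count. Of the members, 0 had all 6 fear case libraries below all 6 controls and 0 had all 6 above, against 0.33% and 0.268% of all tested genes. The call ended when any 1 library other than fear case 6 was left out, with adjusted p up to 0.164 without control 5, and it held without fear case 6 (adjusted p = 0.000121). The plot of levels by library shows the 7 genes side by side.

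**Figure D1:**
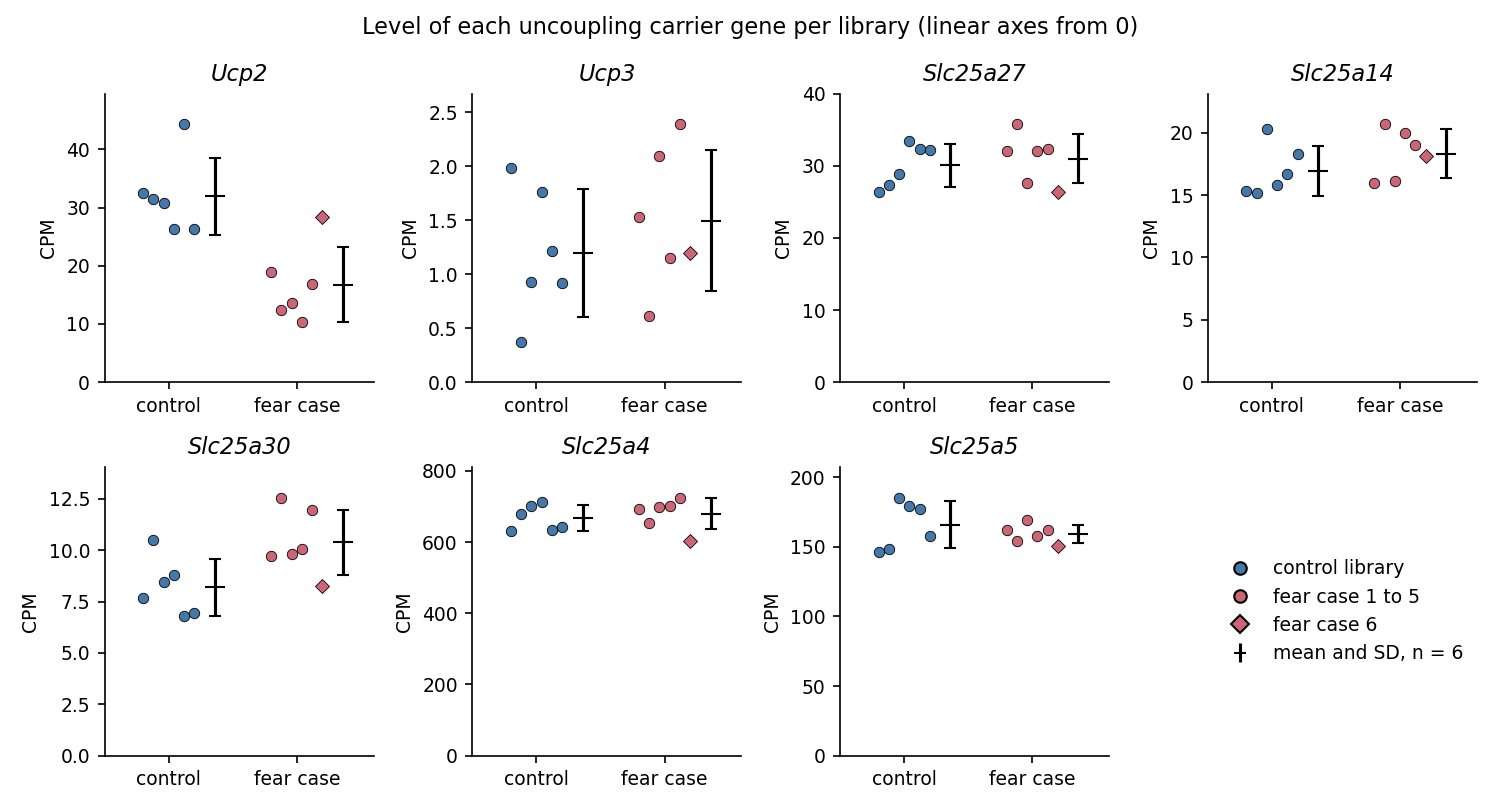
Level of each of the 7 genes in CPM (vertical axis, linear, from 0) in the 6 control and 6 fear case libraries; points are libraries, the diamond is fear case 6, and bars give the mean and SD. Ucp2 in fear case 1 to 5 sits at 10.3 to 18.9 CPM, below all controls, while the ranges of the groups overlap for the other 6 genes.

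Markers of the choroid plexus, which secretes cerebrospinal fluid, ran lower alongside Ucp2. All 20 listed markers were tested, and 20 had a negative log2 fold change (median -1.52, against -0.0046 for all tested genes). None was called (0 of 20), 18 had an unadjusted p under 0.05, and 19 were called lower without fear case 6. In that fit 0.873% of 14665 genes were called, 0.791% lower, and 7.14% of genes had an unadjusted p under 0.05 with all libraries. Their summed level was 1092 to 2970.1 CPM in controls, 108 to 590.4 CPM in fear case 1 to 5 and 2248 CPM in fear case 6. No marker on the list was at 0 in all libraries. The most abundant were Ttr (1121 ± 486 CPM in controls) and Enpp2, which encodes the secreted enzyme autotaxin (385 ± 157 CPM in controls). The log2 fold change of Ttr was -1.78 (SE 0.74, adjusted p = 0.613 with edgeR), and -3.14 without fear case 6. That of Enpp2 was -0.97 (SE 0.40, adjusted p = 0.613 with edgeR), and -1.86 without fear case 6. Over the 20 markers the median without fear case 6 was -2.57, beside -0.0042 for all tested genes. In a bulk sample, fewer cells of a type and less RNA per cell cannot be told apart.

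Between Ttr and Ucp2, Pearson's r of log2 CPM was 0.95 in fear case and 0.39 in controls. Ttr, which encodes transthyretin and is the most abundant choroid plexus marker, stood at 7.41 CPM in fear case 2 and 7.96 CPM in fear case 4. Those libraries held 12.35 and 10.3 CPM of Ucp2, so Ucp2 was still detected where Ttr was lowest. Fear case 6 had 1319 CPM of Ttr and 28.3 CPM of Ucp2, both within the control ranges. Among controls the order differed: control 1 had the most Ttr (1978 CPM) with 32.6 CPM of Ucp2, and control 5 the most Ucp2 (44.3 CPM) with 1110.0 CPM of Ttr.

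Within each group, Ucp2 was set against the choroid plexus score, the mean log2 CPM of the 20 markers. In fear case, Pearson's r was 0.95 (exact permutation p = 0.00833, n = 6) and Spearman's rho was 0.94 (exact permutation p = 0.0167). Over the 42 relations computed (7 genes, 3 marker scores, 2 groups) the adjusted p was 0.35 for r and 0.70 for rho. With 720 pairings per group and 42 relations, 1 relation alone could not pass, however strong, so these adjusted values decide nothing. Without fear case 2 and fear case 6, the libraries farthest from the median score, r was 0.98 over 4 libraries. In controls r was 0.49 (exact permutation p = 0.35, adjusted p = 0.926) and rho 0.49 (exact permutation p = 0.356, adjusted p = 0.911). It was 0.53 without control 1 and control 6. Of the 42 relations, 0 passed after adjustment and 1 had an unadjusted p under 0.05, by either measure.

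**Figure D2:**
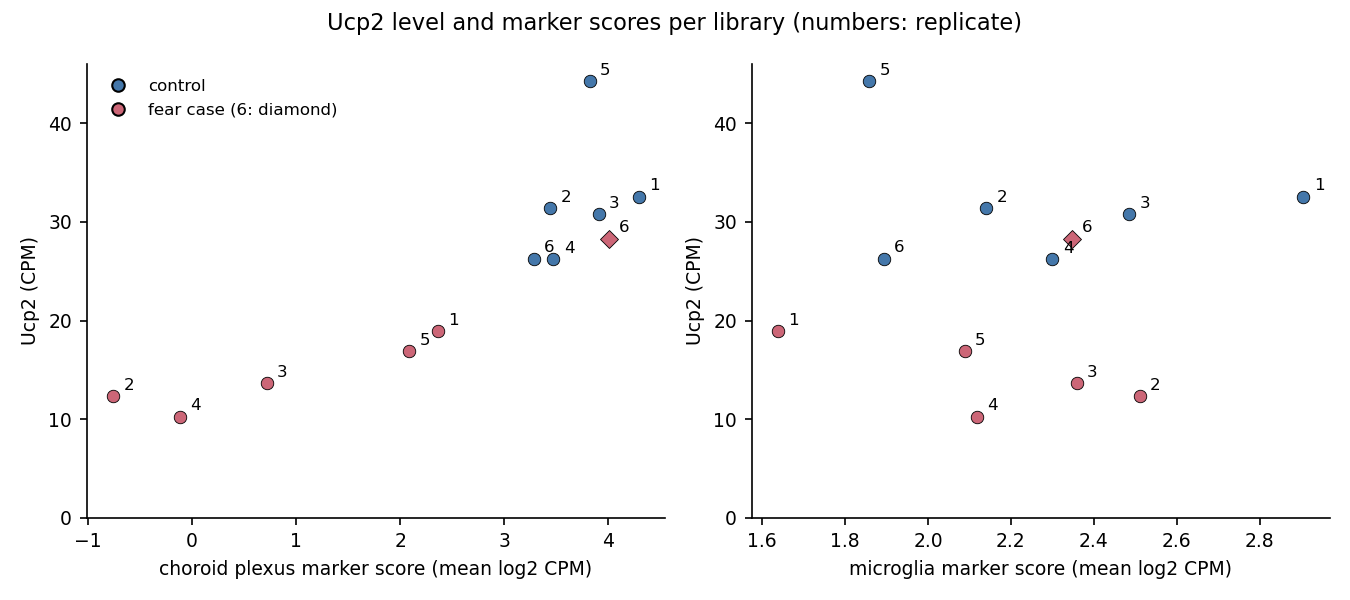
Ucp2 level (CPM, vertical axes from 0) against the choroid plexus marker score (left) and the microglia marker score (right), both as mean log2 CPM; each point is a library with its replicate number, and the diamond is fear case 6. Fear case 1 to 5 have choroid plexus scores of -0.76 to 2.36, below the controls at 3.29 to 4.29, and fear case 6 lies at 4.01.

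Once the choroid plexus score entered edgeR's fit as a covariate, the log2 fold change of Ucp2 was -0.35 (SE 0.16, adjusted p = 0.646). Without fear case 6, a setting chosen after the data were examined, it was -0.48 (SE 0.23, adjusted p = 0.994). Scores of the groups do not overlap once fear case 6 is left out, so the score and the group then cannot be told apart. Markers of the ependyma, the ciliated lining of the ventricles, had a smaller median difference. Of 19 tested, 15 had a negative and 4 a positive log2 fold change (median -0.39). Of these markers 1 was called lower (the ciliary gene Tekt1) and 8 had an unadjusted p under 0.05, beside 0.0549% and 7.14% of all tested genes. Without fear case 6, 4 were called lower, beside 0.791% of genes in that fit. Their summed level was 95.7 to 116 CPM in controls, against 68.9 to 86.8 CPM in fear case. Tekt1 was named after its value was seen. The most abundant on the list were Ccdc39 at 15.7 ± 2.63 CPM in controls (log2 fold change -0.0025) and Rsph1 at 13.96 ± 2.53 CPM (log2 fold change -0.79). With that score as a covariate, the log2 fold change of Ucp2 was -0.17 (SE 0.28, adjusted p = 1 with edgeR). The ependymal score ran from 1.73 to 2.03 in controls and from 1.19 to 1.66 in fear case, so it and the group cannot be told apart. Fear case 6 lay at 1.59, below the controls, unlike its choroid plexus score.

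Microglia are a known site of UCP2. Of 20 microglia markers tested, 0 were called and 0 had an unadjusted p under 0.05 with edgeR, beside 0.103% and 7.14% of all tested genes. With calls this rare over all genes, a count of 0 called says little about microglia. The median log2 fold change of the 20 markers was -0.08, and -0.12 without fear case 6. Their summed level was 92.3 to 182 CPM in controls, against 81.1 to 138 CPM in fear case, with overlapping ranges. Cx3cr1, the fractalkine receptor gene, had a log2 fold change of -0.0047. With the microglia score as a covariate, the log2 fold change of Ucp2 was -0.93 (SE 0.18). This fit does not measure the part of microglia in the Ucp2 values, which was not tested.

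The genes most like Ucp2 were ranked by Pearson's r of log2 CPM over the 12 libraries after each group's mean was taken off, among 13503 genes whose mean reached 1 CPM. This measure does not use the difference between the groups. Each r is a description, since all genes are read from the same 12 libraries, which differ in depth. The first was Cgnl1, which encodes a junction-associated cingulin relative (r = 0.93). Cald1, the actin-binding caldesmon (0.93), Acacb, the acetyl-CoA carboxylase isoform tied to mitochondria (0.91), Drc7 of the ciliary dynein regulatory complex (0.91) and the epithelial keratin gene Krt18 (0.90) followed. The next 5 were the ion channel gene Trpm3 (0.89), Mdfic (0.89), Cdr2 (0.88), Pcp4l1 (0.88) and Kl (0.88), which encodes klotho. Without fear case 6 their r ran from 0.75 to 0.87. Of these 10, Kl is on the choroid plexus list and 0 were called between the groups.

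**Figure D3:**
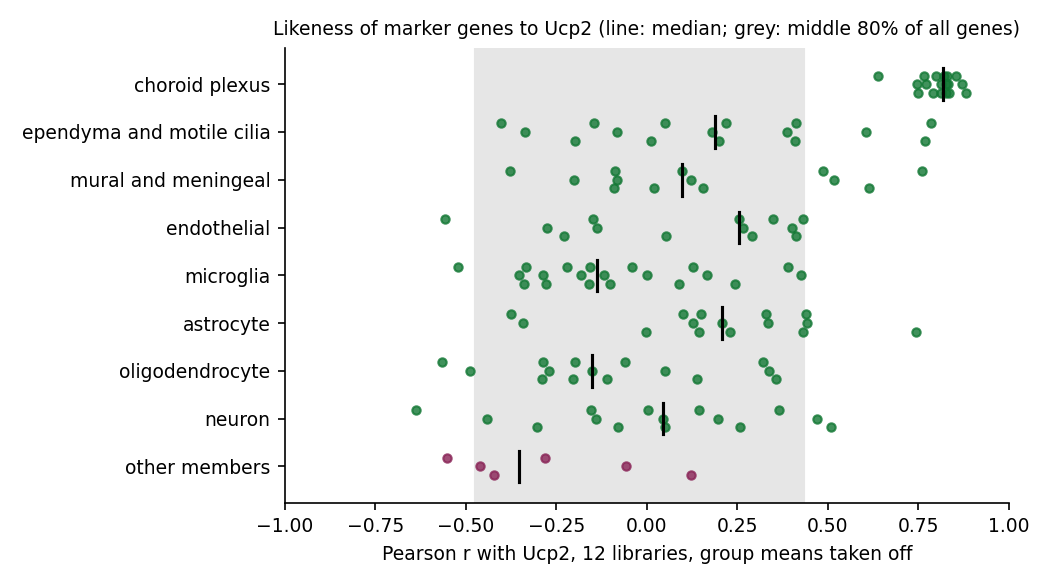
Pearson's r with Ucp2 over 12 libraries after the group means were taken off (horizontal axis) for the markers of each cell type and the other members; each point is a gene, lines are medians, and the grey band holds the middle 80% of all 13503 genes. The 18 choroid plexus markers lie at 0.64 to 0.88, to the right of the band, and the other members at -0.55 to 0.12.

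Of the 18 choroid plexus markers in this ranking, 15 were among the 100 genes most like Ucp2 and the median r was 0.82, beside -0.01 over all genes. Without fear case 6, 6 were among the 100 and the median was 0.63. The fear case libraries carried the higher values, with a median r of 0.91 (0.72 to 0.98) in fear case and 0.40 (-0.0057 to 0.87) in controls. Of 16 ependymal and ciliary markers 2 were among the 100, and of 20 microglia markers 0. The median r was 0.19 for ependymal and ciliary markers, 0.21 for astrocyte, 0.04 for neuron and -0.14 for microglia markers. No other member was among the 100 (0 of 6). The r with Ucp2 was 0.12 for Ucp3, -0.06 for Slc25a5, -0.28 for Slc25a14, -0.42 for Slc25a27, -0.46 for Slc25a30 and -0.55 for Slc25a4. The plot of likeness by marker list shows all these genes.

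Exons of Ucp2 overlap those of Dnajb13, a motile cilia gene on the opposite strand, over 305 bases, or 4.36% of the annotated exon length of Ucp2. The sources used here do not say whether the counting used strand. Dnajb13 had 1 to 26 counts per library, at 0.194 to 0.968 CPM in controls, against 0.0442 to 1.11 CPM in fear case. The effect of this overlap on Ucp2 was not tested. No exon of the other 6 genes overlaps an exon of another annotated gene.

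Ucp3, the uncoupling protein of skeletal muscle, was near the floor of these libraries. It had 7 to 53 counts per library, at 0.372, 1.07 and 1.99 CPM in controls (lowest, median, highest) and 0.617, 1.36 and 2.39 CPM in fear case. Of the fear case libraries 2 lay above every control, and the ranges overlapped. The log2 fold change was 0.31 (SE 0.38, 95% interval -0.48 to 1.09). Ucp1 had 0 counts in 6 of the 12 libraries and at most 8, reached in fear case 4. A floor of 3 counts corresponds to 0.0678 to 0.162 CPM over the libraries, for counting error only.

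Slc25a30, a carrier first found in kidney mitochondria, had the largest positive log2 fold change of the 7. Its lowest, median and highest levels were 6.79, 8.07 and 10.5 CPM in controls, against 8.28, 9.94 and 12.55 CPM in fear case. Of the fear case libraries 2 lay above every control, and the ranges overlapped. The log2 fold change was 0.34 (SE 0.14, 95% interval 0.05 to 0.63). With edgeR the unadjusted p was 0.0228 and the adjusted p 0.602, so it did not pass, beside the same 7.14% of all tested genes. After the choroid plexus score entered the fit, the log2 fold change of Slc25a30 was 0.14 (SE 0.19).

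The brain-enriched carriers Slc25a27 and Slc25a14 differed little between the groups. Slc25a27 stood at 26.3, 30.5 and 33.4 CPM in controls (lowest, median, highest) and 26.3, 32.0 and 35.7 CPM in fear case. The log2 fold change of Slc25a27 was 0.04 (SE 0.09, 95% interval -0.15 to 0.23; adjusted p = 0.95 with edgeR). Slc25a14 stood at 15.2, 16.2 and 20.3 CPM in controls, against 15.96, 18.6 and 20.7 CPM in fear case. For Slc25a14 it was 0.11 (SE 0.10, 95% interval -0.10 to 0.33; adjusted p = 0.848 with edgeR). For each gene 1 fear case library lay above every control and the groups overlapped.

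The adenine nucleotide translocases were the most abundant members and differed little between the groups. Slc25a4, the main form of heart, muscle and brain, stood at 632, 660.0 and 713 CPM in controls, against 603, 695 and 724 CPM in fear case. The log2 fold change of Slc25a4 was 0.03 (SE 0.06, 95% interval -0.11 to 0.16; adjusted p = 0.961 with edgeR). Slc25a5, the form linked to growth and proliferation, stood at 146, 167 and 185 CPM in controls, against 151, 160 and 169 CPM in fear case. For Slc25a5 it was -0.06 (SE 0.07, 95% interval -0.20 to 0.09; adjusted p = 0.90 with edgeR). The groups overlapped for both genes.

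**Figure D4:**
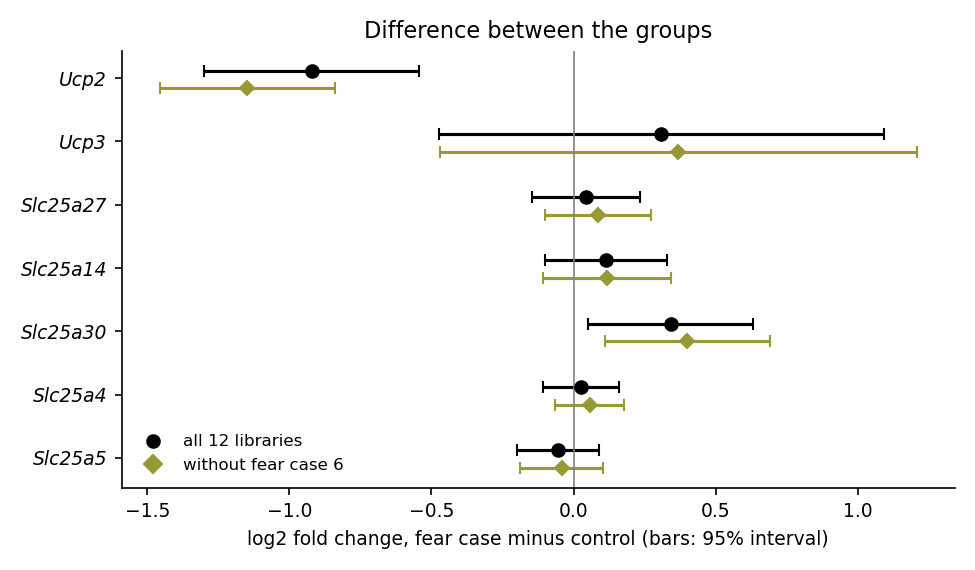
Log2 fold change of each member, fear case minus control (horizontal axis), with 95% intervals from the fit over all genes; circles use all 12 libraries and diamonds leave out fear case 6. Ucp2 lies at -0.92 and -1.15, Slc25a30 at 0.34 and 0.40, and the intervals of the other 5 genes include 0.

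The spread within a group, as a coefficient of variation of CPM, was 20.7% in controls and 38.7% in fear case for Ucp2. It was 5.39% and 6.43% for Slc25a4, 10.2% and 4.13% for Slc25a5, and 9.89% and 11.1% for Slc25a27. It was 11.8% and 10.7% for Slc25a14, 16.9% and 15.2% for Slc25a30, and 49.6% and 43.7% for Ucp3. The medians over all tested genes were 13.3% and 13.6%. For Ucp2 single libraries set much of this spread. Without control 5 its coefficient of variation in controls was 10.1%, below the median of 13.4% over all tested genes in those 5 libraries. Without fear case 6 it was 24.1% in fear case, beside a median of 11.95%.

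Levels were compared between genes per length, as CPM per kb of annotated exon, given as mean ± SD over the 12 libraries. Slc25a4 came first at 286 ± 16.4, at the 99.6th percentile of tested genes, and Slc25a5 second at 98.8 ± 7.69. Slc25a27 (7.76 ± 0.789) and Slc25a14 (7.45 ± 0.857) followed, with Slc25a27 higher in 9 of 12 libraries and overlapping ranges, so their order is not set beyond the spread. Ucp2 came next at 3.48 ± 1.44, with 3.75 to 6.34 in controls and 1.47 to 4.05 in fear case. Slc25a30 followed at 2.03 ± 0.399, below Ucp2 in 8 of 12 libraries and with an overlapping range, and Ucp3 was last at 0.430 ± 0.196. Every other step in this order held in all 12 libraries.

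**Figure D5:**
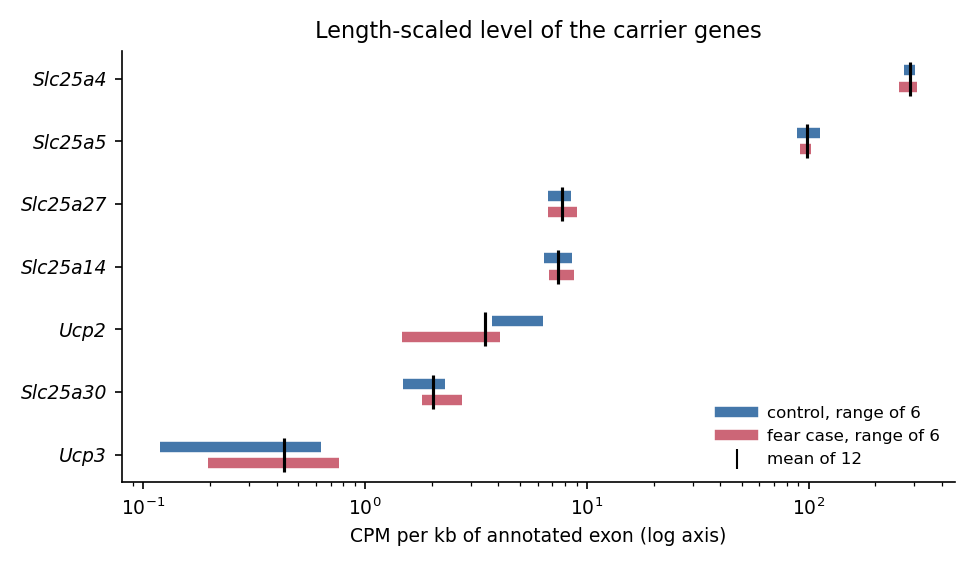
Level of each member as CPM per kb of annotated exon (horizontal log axis); bars span the lowest to highest of the 6 libraries in each group and ticks mark the mean of 12. Slc25a4 at 286 and Slc25a5 at 98.8 lie far above the other 5 genes, and the Ucp2 bars run from 3.75 to 6.34 in controls and from 1.47 to 4.05 in fear case.

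The annotated exons of Ucp2 include retained introns and total 6989 bases, while its longest transcript has 3988. Scaled to the longest transcript, Ucp2 stood at 6.10 ± 2.53 CPM per kb, or 8.00 in controls and 4.19 in fear case. On that scale its range also overlapped that of Slc25a14 (9.46 ± 1.09), and the order of the 7 genes was the same. The ratio of Slc25a4 to Slc25a5 per kb of longest transcript was 2.30, 2.59 and 2.94 in controls (lowest, median, highest) and 2.58, 2.74 and 2.88 in fear case, with overlapping ranges.

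Slc25a5 lies on chromosome X from 36795651 to 36798807 on the plus strand, and 42.3% of the windows of 40 bases in its transcripts, the read length, also occur in transcripts of 10 other genes, each annotated as a pseudogene. A read that lies in such a window has more than 1 possible source. Records aligned to more than 1 place, 67.8 M to 115 M per library, were counted on no gene. The effect of this on the Slc25a5 level and on its ratio to Slc25a4 was not tested. The shared fraction was 3.93% for Ucp2, 0.46% for Slc25a30, 0.205% for Slc25a27 and 0 for Slc25a4, Slc25a14 and Ucp3. Slc25a4 lies on chromosome 8 (46206797 to 46211284, minus strand), Slc25a14 on chromosome X (48623413 to 48662294, plus), Slc25a27 on chromosome 17 (43641891 to 43667214, minus) and Slc25a30 on chromosome 14 (75760117 to 75787037, minus).

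Other carriers of the SLC25 family moved little. Over all tested genes 0.103% were called with edgeR and 7.14% had an unadjusted p under 0.05, the shares for this list and those below. Of 45 listed genes 37 were tested and 0 were called with edgeR, with 1 at an unadjusted p under 0.05 and a median log2 fold change of -0.02. That gene was Slc25a39, a carrier needed for mitochondrial glutathione import, at 62.0 ± 5.24 CPM in controls, against 50.05 ± 4.63 CPM in fear case. Its log2 fold change was -0.31 (SE 0.08, adjusted p = 0.18 with edgeR). All 6 of its fear case libraries lay below all 6 controls, as did those of 0.33% of all tested genes, and DESeq2, which called 0.433% of all tested genes, called it (adjusted p = 0.0492). The citrate carrier gene Slc25a1 (log2 fold change -0.22, adjusted p = 0.706 with edgeR) and the aspartate-glutamate carrier gene Slc25a13 (-0.51, adjusted p = 0.707) came next.

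Mitochondrial antioxidant genes also had 0 of 19 called with edgeR and 3 at an unadjusted p under 0.05, beside 0.103% and 7.14% of all tested genes. Their median log2 fold change was -0.11. Idh2, which makes mitochondrial NADPH, stood at 31.8 ± 3.12 CPM in controls, against 24.45 ± 2.07 CPM in fear case, with no overlap, as in 0.33% of all tested genes. Its log2 fold change was -0.38 (adjusted p = 0.127 with edgeR). It was called lower by DESeq2 (adjusted p = 0.016), which called 0.433% of all tested genes. Without fear case 6 it was also called lower (adjusted p = 0.0292 with edgeR), as were 0.791% of genes in that fit. For Gpx4, the lipid peroxide reductase, the log2 difference was -0.23 (adjusted p = 0.404 with edgeR), also with no overlap. For the glutaredoxin gene Glrx5 it was -0.25 (adjusted p = 0.506 with edgeR).

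Genes of fatty acid uptake and oxidation had 0 of 23 called with edgeR and 6 at an unadjusted p under 0.05, beside 0.103% and 7.14% of all tested genes. Their median log2 fold change was -0.06. Acaa2, the mitochondrial thiolase, stood at 14.2 ± 3.00 CPM in controls, against 9.64 ± 1.52 CPM in fear case. Its log2 fold change was -0.56 (SE 0.14, adjusted p = 0.179 with edgeR). It was called lower by DESeq2 (adjusted p = 0.0322), which called 0.433% of all tested genes. Without fear case 6 it was also called lower (adjusted p = 0.0209 with edgeR), as were 0.791% of genes in that fit. Etfb, a subunit of the electron transfer flavoprotein, and Acadvl, the very long chain acyl-CoA dehydrogenase, had log2 fold changes of -0.28 and -0.29 (adjusted p = 0.386 and 0.452 with edgeR).

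Among partners of the translocases 0 of 24 tested genes were called with edgeR and 2 had an unadjusted p under 0.05 (median log2 fold change -0.02). For the ATP synthase gene Atp5e the log2 fold change was -0.23 (adjusted p = 0.597 with edgeR). For the matrix adenylate kinase gene Ak3 it was -0.15 (adjusted p = 0.742 with edgeR). The outer membrane protein gene Tspo stood at -0.77 (adjusted p = 0.617 with edgeR) on 7 to 53 counts per library. All 6 of its fear case libraries lay below all 6 controls, as did those of 0.33% of all tested genes. Of 22 regulators of mitochondrial genes 0 were called and 1 had an unadjusted p under 0.05 (median -0.08). Their lowest p-values belonged to Esrra, an orphan receptor of energy genes (-0.22, adjusted p = 0.642 with edgeR), Foxo1 (-0.16, adjusted p = 0.701) and the thyroid hormone receptor gene Thrb (0.13, adjusted p = 0.712). Of 12 respiratory chain subunits 0 were called and 1 had an unadjusted p under 0.05 (median -0.01), with Cox4i1 at -0.16 (adjusted p = 0.679 with edgeR), Uqcrc1 at -0.13 and Ndufs1 at 0.13 (adjusted p = 0.766 each). DESeq2 called 0 genes in these last 3 lists.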

How the data were processed

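The authors deposited whole-number counts per gene symbol, 1 file per library, without normalization. Per the submitters' processing notes, cutadapt, TopHat, Bowtie and HTSeq were used with build mm10; their versions, the annotation and the strand setting are not given there. Records on no gene were 25.5% to 33.3% of those on a gene, on none or ambiguous. Records aligned to more than 1 place were outside that share, at 67.8 M to 115 M per library. All these summary lines were left out.

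For the comparison (edgeR 4.0.16 in R 4.3.3), filterByExpr kept genes (minimum count 10, minimum total 15), TMM set the library scaling and the groups were compared by the quasi-likelihood test without covariates, with Benjamini-Hochberg adjustment over 14564 genes and calls at an adjusted p under 0.05. Log2 CPM used a prior count of 2. The fit was tested on simulated data. Alternatives used DESeq2 1.42.0, limma 3.58.1, other scalings and filters, a replicate block, marker scores as covariates and single libraries left out. Gene counts per library were 18.6 M to 44.2 M, which puts the floor of 3 counts at 0.0678 to 0.162 CPM.

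The members and gene lists were chosen with earlier results of these data known. The rule for named genes took the 7 members, from each gene list the genes called and the 3 with the lowest p, the 2 most abundant markers of each cell type, the 10 genes most like Ucp2, overlapping genes, Fos, Npas4, Arc and Ucp1. One marker that the rule takes is not reported here.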

Additional observations from a re-analysis of the deposited data

Results flagged for a closer look

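Ucp2 in control 5 stood at 44.3 CPM, far from the other 5 controls at 26.2 to 32.6 CPM. The gap to the next control was 0.649 of the group's whole range, above Dixon's 95% critical value for 6 samples. It was the 1 value to pass among 28 groups of 6 examined (7 members, 3 marker scores and 4 other genes in each group), and chance passes about 1 in 20. Without control 5 the log2 fold change of Ucp2 was -0.81 (SE 0.18, adjusted p = 0.164 with edgeR).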

How the results depend on the processing

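The log2 fold change of Ucp2 was negative in all 23 alternatives, from -1.15 to -0.17, and stayed past the threshold in 7. It ranged from -1.15 to -0.81 with a single library left out, where members called ranged from 0 to 1 and genes called from 9 to 128. Past those, the Ucp2 call ended with limma-voom (-0.93, adjusted p = 0.0561), with a filter of 1 CPM in 6 libraries (-0.92, adjusted p = 0.0539), with the choroid plexus score (-0.35), with that score and without fear case 6 (-0.48) and with the ependymal score (-0.17), each leaving 0 members called. Genes called over the whole table numbered 15, against 63 with DESeq2, 37 with no filter on low counts, 6 with the choroid plexus score, 2 with that score without fear case 6 and 0 with the ependymal score. The count of called list members went from 0 to 1 with DESeq2 for the other SLC25 carriers, the antioxidant and the fatty acid list, and ranged from 0 to 1 for the last 2 with a library left out. Small differences turned sign with a covariate: with the choroid plexus score Slc25a27 was -0.11 and Slc25a4 -0.03; with that score without fear case 6 Slc25a27 was -0.04, Slc25a14 -0.10 and Slc25a5 0.01; with the ependymal score Slc25a4 was -0.01 and Slc25a5 0.03. Ucp3 kept its positive sign, at 0.31 (SE 0.38) without a covariate and 0.74 (SE 0.55) with the choroid plexus score. It was 0.70 (SE 0.71) with the ependymal score and 1.68 (SE 0.74) with the choroid plexus score without fear case 6. The causes were not tested. With the replicate block, Ucp2 was at -0.98 (adjusted p = 0.031 with edgeR) and 18 genes were called. Deviations of same-numbered libraries correlated at -0.17 to 0.05 over all tested genes, which cannot exclude a pairing that touches few genes. Whether the numbers pair the samples was not tested further. Depth limits Ucp3, with 7 to 53 counts per library.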

Other observations

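Markers of other cell types that could hold Ucp2 were also read beside it. Over all tested genes 0.103% were called with edgeR and 7.14% had an unadjusted p under 0.05. Of 13 tested mural and meningeal markers 0 were called with edgeR and 1 had an unadjusted p under 0.05, with a median log2 fold change of -0.30. That marker was Igf2, a growth factor gene of meninges and choroid plexus, at 89.6 ± 14.5 CPM in controls, against 48.5 ± 28.2 CPM in fear case. For Igf2 5 of 6 fear case libraries lay below every control, and 1.84% of all tested genes had at least 5 there. Its log2 fold change was -0.88 (SE 0.22, adjusted p = 0.18 with edgeR). Igf2 was called lower without fear case 6 (log2 fold change -1.26, adjusted p = 1.11e-05 with edgeR), as were 0.791% of genes in that fit. Dcn, the other of the 2 most abundant markers on this list and a gene of connective tissue, stood at 22.1 ± 7.01 CPM in controls and had a log2 fold change of 0.26 (SE 0.16, unadjusted p = 0.127 with edgeR). Endothelial markers had 0 of 14 called and 1 at an unadjusted p under 0.05, astrocyte markers 0 of 15 and 1, oligodendrocyte markers 0 of 15 and 1, and neuron markers 0 of 15 and 0. Their medians were -0.13, 0.06, -0.12 and 0.05, and -0.30, -0.04, -0.08 and 0.05 without fear case 6. The endothelial score (mean log2 CPM) of fear case 1 to 5, at most 1.3214, lay just below the lowest control, 1.3218. Fear case 6 stood at 1.653, above all controls. Summed endothelial levels overlapped, with fear case 1 to 5 reaching 51.3 CPM and controls starting at 46.7 CPM. For mural and meningeal markers, sums of fear case 1 to 5 reached 150.1 CPM, below the lowest control (150.9 CPM), while scores overlapped. The blood list had 2 tested markers, 0 called. The part of these lists in the Ucp2 values was not tested.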
